A study of Mus musculus with 2 samples.

Results

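The Ctla2 and cystatin cysteine protease inhibitors are described here in libraries of Tregs sorted from the spleen and the lung of bleomycin (BLM)-treated mice. The group held 5 genes, Ctla2a, Ctla2b, Cst3, Cst7 and Cstb, and all 5 were found by symbol among the 24346 symbols listed in both libraries. They were chosen by gene family and, in part, by the measured value of Ctla2a, which was far higher in the lung library. The lung-to-spleen ratios of these genes are therefore given as a description and no test was applied to them.

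FDG mice carry a reporter at the endogenous Foxp3 locus, so that GFP marks cells expressing Foxp3, the transcription factor of Tregs. BLM, which injures the lung and leads to fibrosis, was given into the trachea at 50 µg to mice of 10 to 16 weeks of age. On day 15, GFP+CD4+ cells were sorted from the spleen and from the lung, and each tissue yielded 1 library from the pooled cells of 3 mice. Both libraries thus came from BLM-administered reporter mice, and neither untreated mice nor GFP- cells are among these libraries. Values are FPKM, which scale the fragment number of a gene by transcript length and library size, and they were compared without replicates, so the variation between mice is unknown.

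The FPKM summed to 599633 in the spleen library and 808853 in the lung library, with 9542 and 10638 symbols listed at 0. Read numbers were estimated from the low FPKM values, in which 1 read at 1 kb was worth 0.0964 FPKM in spleen and 0.0849 FPKM in lung. Intervals below are 95% intervals from these estimated reads, and they cover counting error only. Foxp3 stood at 18.7 FPKM in spleen and 41.8 in lung, Cd4 at 195 and 179, and Cd3e, a chain of the T cell receptor complex, at 513 and 369, so the labelled cell type was present in both. Lyz2, a lysozyme gene listed here among the macrophage markers, stood at 376 FPKM in spleen and 24947 in lung, a 66.3-fold ratio. In bulk libraries such as these, fewer cells of a type and less RNA per cell cannot be told apart.

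Cysteine cathepsins are papain-like proteases, most of which work in endosomes and lysosomes, where they degrade proteins and prepare antigens. They are made as proenzymes whose propeptide covers the active site until it is removed. Ctla2a and Ctla2b, first found in activated T cells, encode small proteins that resemble the propeptide of cathepsin L without the protease that follows it, and CTLA-2α inhibits cathepsin L. The cystatins are separate proteins that block the active site. Cst3 encodes cystatin C, a secreted inhibitor made by many cells, Cst7 encodes cystatin F, which is found in immune cells and acts on cathepsin C inside lysosomes, and Cstb encodes stefin B, an inhibitor of the cytosol.

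Ctla2a and Ctla2b are near copies of each other, and their sequences are shown because reads may be shared between them. In GRCm38 (mm10) with GENCODE M21, both lie on the minus strand, Ctla2b at chr13:60895350-60897447 and Ctla2a at chr13:60934155-60936625, with 36707 bases between them. The coding sequence of Ctla2a-201 spans 414 nt and that of Ctla2b-201 342 nt. Over the 342 coding columns that both have, 329 bases were identical (96.2%), and Ctla2a has 72 further coding bases in front. The first 150 shared coding bases, 73 to 222 of Ctla2a and 1 to 150 of Ctla2b, are given 5′ to 3′ with the 6 bases that differ in capitals.
Ctla2a: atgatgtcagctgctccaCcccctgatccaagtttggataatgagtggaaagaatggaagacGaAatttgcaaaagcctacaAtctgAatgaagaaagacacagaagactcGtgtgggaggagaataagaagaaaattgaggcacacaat
Ctla2b: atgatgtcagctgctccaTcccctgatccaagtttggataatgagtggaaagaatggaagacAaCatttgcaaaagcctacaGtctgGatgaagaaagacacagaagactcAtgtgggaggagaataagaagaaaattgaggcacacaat

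The likeness to cathepsins was also visible in the coding bases. The highest-scoring local alignment of Ctla2a was with Ctsm, a cathepsin of the placenta, and covered 260 columns with 70% identity at bases 9 to 268 of its 1002 coding bases. With Ctsl, which encodes cathepsin L, 141 of 240 columns were identical (58.8%), at bases 26 to 265 of 1005. For Ctla2b the highest score was with Cts3, 69.5% over 223 columns, and with Ctsl the identity was 58.2% over 220 columns. These alignments lay at the front of the cathepsin coding sequences, the end that encodes the signal peptide and propeptide. Over whole coding sequences, a scale not comparable with these local stretches, 47.3% of columns were identical between Cst3 and Cst7, 39% between Cst3 and Cstb and 36.9% between Cst7 and Cstb. On that scale Ctla2a, which is no cystatin, had 43.5% with Cst3, 43.2% with Cst7 and 39.2% with Cstb.

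Upstream of their starts the paralogues were alike too. RefSeq promoter windows of GRCm38 were matched for 4 of the 5 genes, Ctla2a, Ctla2b, Cst3 and Cst7. The 250 bases before the start of Ctla2a, chr13:60936626-60936875, and of Ctla2b, chr13:60897448-60897697, are printed on the minus strand, with bases that differ or have no partner in capitals. They aligned over 228 columns with 208 identical bases (91.2%), and each had 22 bases without a partner.
Ctla2a: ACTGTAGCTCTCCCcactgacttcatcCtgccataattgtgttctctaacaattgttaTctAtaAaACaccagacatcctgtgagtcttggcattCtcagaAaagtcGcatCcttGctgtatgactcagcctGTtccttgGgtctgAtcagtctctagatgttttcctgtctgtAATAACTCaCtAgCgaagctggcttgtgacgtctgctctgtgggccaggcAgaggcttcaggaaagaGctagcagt
Ctla2b: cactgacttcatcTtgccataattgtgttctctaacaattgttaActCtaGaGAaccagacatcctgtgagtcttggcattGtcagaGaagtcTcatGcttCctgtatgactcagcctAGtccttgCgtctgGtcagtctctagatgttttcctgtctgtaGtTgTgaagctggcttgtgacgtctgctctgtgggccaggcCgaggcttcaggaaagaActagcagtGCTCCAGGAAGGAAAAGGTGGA

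Short motifs were searched on both strands of these 250 bases. The AP-1 motif, TGACTCA or its reverse complement TGAGTCA, was found once in each paralogue, with its first base at -129 in Ctla2a and at -143 in Ctla2b, and in neither Cst3 nor Cst7. It occurred in 4.46% of all 32851 promoter windows of this length. TATAAA, present in 12.4% of windows, occurred in Ctla2a at -190, and the GATA motif AGATAA, present in 9.99%, occurred at -195 on the opposite strand and overlaps it. The STAT motif TTCNNNGAA, present in 7.02%, occurred in Ctla2a at -157. None of the latter 3 motifs was found in the Ctla2b window. The RUNX motif TGTGGT, present in 14%, occurred in Cst7 at -188, and the NF-kappaB consensus, present in 0.14%, was found in none of the 4 genes. RefSeq lists a further start for Ctla2a, and the positions given are relative to the start that coincides with the GENCODE gene. For Cst3 the RefSeq start lies inside the GENCODE gene. The bases searched, chr2:148875513-148875762 on the minus strand, thus overlap that gene, which reaches to 148875692. The absence of motifs at Cst3 therefore refers in part to bases within the gene.

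All 5 inhibitors were expressed in both libraries, and their sum was 607 FPKM in spleen and 2280 FPKM in lung. In spleen Cst3 was the highest, followed by Cst7, Cstb, Ctla2a and Ctla2b, and the highest level was 39 times the lowest. In lung the order was Cst3, Cstb, Ctla2a, Ctla2b and Cst7, and the highest level was 5.62 times the lowest. Cst7 thus moved from the second place to the last, and the levels lay closer together in the lung library.

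Ctla2a, a cathepsin L inhibitor, stood at 19.2 FPKM in the splenic Treg library and 426 FPKM in the lung Treg library, from about 232 and 5836 reads. The lung level was 22.2 times the splenic level (interval 19.4 to 25.4), a log2 ratio of 4.47. Its rank among all symbols went from 4554 to 315, and its share of the summed FPKM of the 5 inhibitors from 3.17% to 18.7%. Among the 1201 genes at 100 FPKM or more in lung, 47 had a higher ratio than Ctla2a.

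Ctla2b, its paralogue, stood at 7.7 FPKM in spleen and 172 FPKM in lung, from about 61 and 1540 reads. The ratio was 22.4 (interval 17.2 to 29.2), a log2 ratio of 4.48, and its rank went from 7276 to 707. The ratio of Ctla2a to Ctla2b was 2.5 in spleen (interval 1.86 to 3.34) and 2.47 in lung (interval 2.34 to 2.62), so the intervals overlapped and the pair kept nearly the same proportion at both levels. Summed, the paralogues stood at 26.9 FPKM in spleen and 598 FPKM in lung.

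The proportion of the paralogues depends on how shared reads were assigned. Of the 1299 windows of 75 bases, the read length, in the Ctla2a-201 transcript, 29 (2.23%) occurred without mismatch in Ctla2b and 198 (15.2%) occurred there with up to 2 mismatches. Of the 768 windows of Ctla2b-201, 29 (3.78%) occurred in Ctla2a and 198 (25.8%) with up to 2 mismatches. For the other Ctla2b transcript, Ctla2b-202, 74 (7.25%) of 1020 windows occurred without mismatch in any annotated Ctla2a transcript. Against Ctla2a-201 alone, 160 (15.7%) occurred with up to 2 mismatches, so the first count is not a part of the second. Counting every listed symbol, 66 windows of Ctla2a-201 occurred in another gene. With all annotated genes counted, among them the overlapping read-through models Gm49391 and Gm49392, which are not listed symbols, the shares were 24.5% for Ctla2a-201, 82.4% for Ctla2b-201 and 96.7% for Ctla2b-202. The levels of the paralogues are uncertain where such reads were divided or dropped, whereas for Cst3, Cst7 and Cstb no window was shared with another gene.

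**Figure D1:**
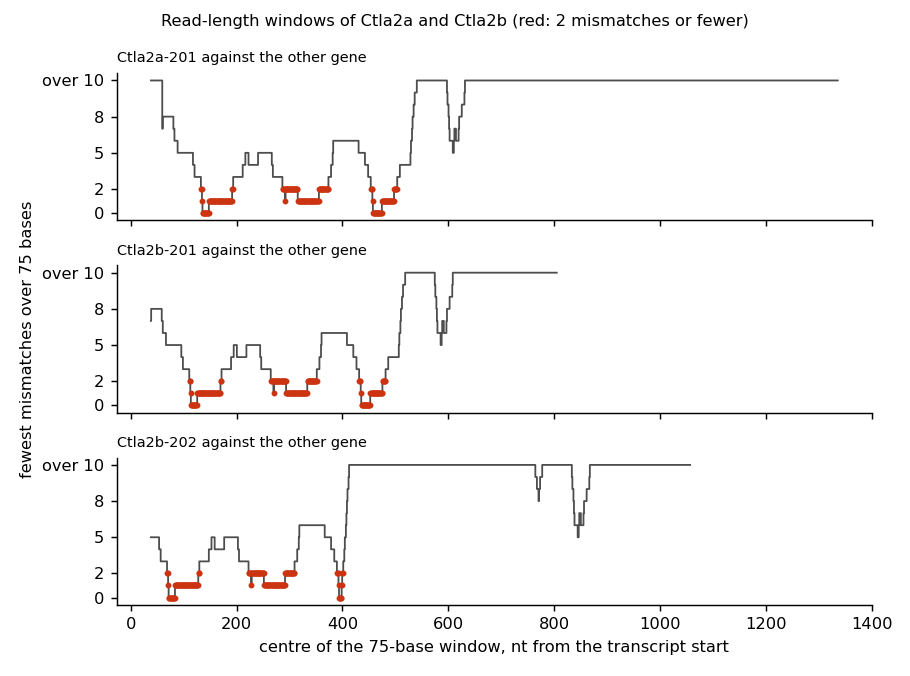
Fewest mismatches between each 75-base window of a Ctla2a or Ctla2b transcript and the paralogue's transcripts, with 1 panel per transcript. Only transcripts with a panel were compared. The axis gives the centre of the window in bases from the transcript start, and windows over 10 mismatches are drawn at the top. Most windows differed by more than 2 mismatches, and 29 windows of Ctla2a-201 matched Ctla2b without mismatch.

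Among the cystatins, Cst3 on chr2:148871722-148875692 was the most abundant in both libraries. It stood at 300 FPKM in spleen and 828 FPKM in lung, from about 2029 and 6345 reads, a ratio of 2.76 (interval 2.62 to 2.9) and a log2 ratio of 1.46. With 527 FPKM between the libraries, its absolute difference was larger than the 407 FPKM of Ctla2a although its ratio was far smaller. When the libraries were rescaled to equal Foxp3, the ratio of Cst3 was 1.23.

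Cstb, the cytosolic stefin B gene on chr10:78425669-78427622, stood at 123 FPKM in spleen and 707 FPKM in lung, from about 503 and 3279 reads. Its ratio was 5.74 (interval 5.23 to 6.32), a log2 ratio of 2.52, and its difference of 583 FPKM was the largest of the 5. The ratio of Cst3 to Cstb within a library was 2.44 in spleen (interval 2.21 to 2.7) and 1.17 in lung (interval 1.12 to 1.22). The secreted and the cytosolic inhibitor were thus closer in level in the lung library.

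Cst7, the leukocyte cystatin F gene on chr2:150570415-150578944, stood at 157 FPKM in spleen and 147 FPKM in lung, from about 1262 and 1347 reads. Its ratio was 0.94 (interval 0.87 to 1.02) and its log2 ratio -0.09, and the interval included equal levels. It was the only one of the 5 that was not over 2-fold higher in lung. The sign of its log2 ratio depended on the scaling, being -1.25 with Foxp3 set equal and 0.39 with Cd3e set equal. The ratio of Cst3 to Cst7 went from 1.92 in spleen (interval 1.79 to 2.06) to 5.62 in lung (interval 5.3 to 5.97).

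**Figure D2:**
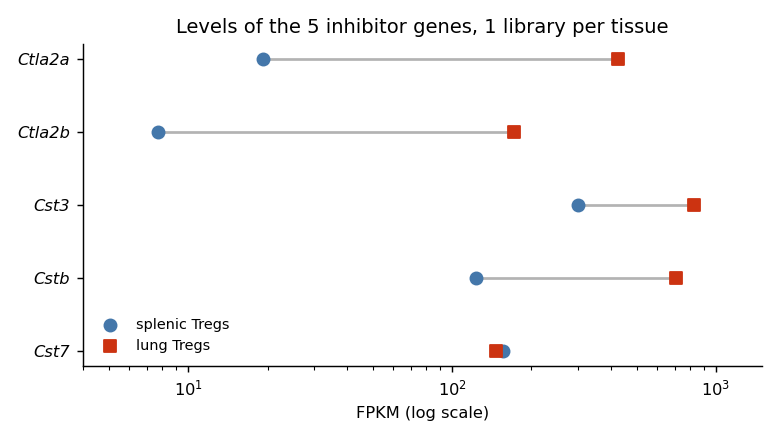
FPKM on a log axis of the 5 inhibitors in the spleen and lung library of BLM-treated mice, 1 point per library, with lines joining the values of a gene. Ctla2a and Ctla2b went from 19.2 and 7.7 FPKM to 426 and 172, while Cst7 stood at 157 and 147.

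Counted together, 4 of the 5 inhibitors were over 2-fold higher in lung and 2, Ctla2a and Ctla2b, over 20-fold higher, the threshold used in the study, while 0 were over 2-fold lower. Across all symbols 11.0% were over 2-fold and 1.62% over 20-fold higher. Among the 12094 symbols at 1 FPKM or more in either library, 17.8% were over 2-fold higher, 15.5% over 2-fold lower and 3.27% over 20-fold higher. Because the selection used this contrast, nothing is read from the counts of the 5 genes beside these shares. Over the 5 genes the log2 ratios had a median of 2.52, and over those 12094 symbols of 0.03. The next inhibitor below the 20-fold threshold was Cstb at 5.74. The threshold lay close to both Ctla2 genes. Rescaling to TPM lowered log2 ratios by a median of 0.43 over genes at 1 FPKM or more in both libraries. With TPM the ratios were 16.4 for Ctla2a and 16.6 for Ctla2b. With Foxp3 set equal they were 9.92 and 10.1.

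**Figure D3:**
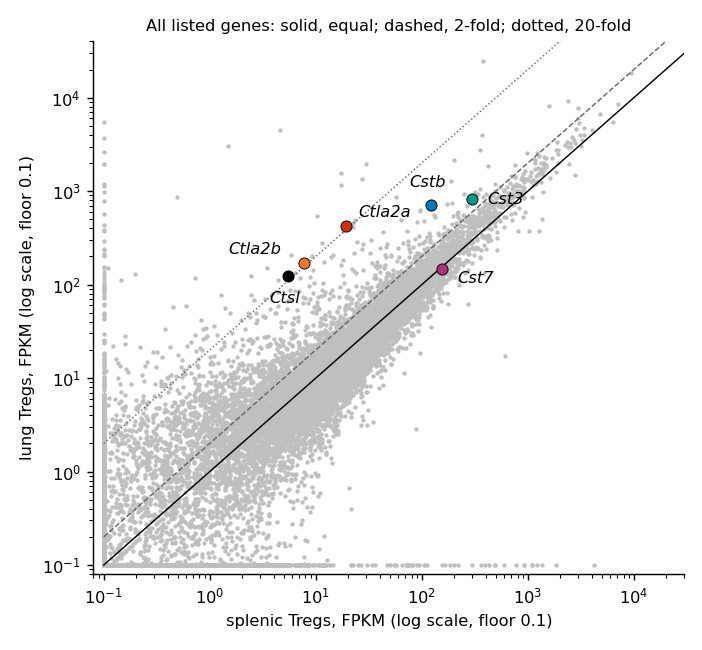
FPKM of all symbols in the lung library against the spleen library, both on log axes, with the 5 inhibitors and Ctsl labelled and lines for equal, 2-fold and 20-fold levels. Ctla2a, Ctla2b and Ctsl lie just above the 20-fold line and Cst7 near the line of equal levels.

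The target proteases of these inhibitors were measured in the same libraries. All 11 cysteine cathepsins and legumain genes were expressed, 9 were over 2-fold higher in lung and 0 lower, with a median log2 ratio of 2.09, and their sum was 961 FPKM in spleen and 4938 FPKM in lung. With Foxp3 set equal, 5 were over 2-fold higher and 2 lower. Ctss, which encodes the cathepsin S of antigen-presenting cells, was the highest at 357 and 2779 FPKM (7.79-fold). Ctsb, for cathepsin B, stood at 198 and 536 FPKM (2.7-fold), and Ctsz, for cathepsin Z, at 104 and 484 FPKM (4.66-fold). Ctsk, for the collagen-degrading cathepsin K, was listed at 0 in spleen, where 3 reads would give 0.222 FPKM, and stood at 110 FPKM in lung.

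Ctsl, the target of CTLA-2α, stood at 5.42 FPKM in spleen and 123 FPKM in lung, a 22.7-fold ratio. The ratio of Ctla2a to Ctsl was 3.55 in spleen (interval 2.79 to 4.54) and 3.47 in lung (interval 3.31 to 3.64), and that of Ctla2b to Ctsl was 1.42 (interval 1.02 to 1.99) and 1.4 (interval 1.32 to 1.5). Inhibitor and target transcripts thus stood in nearly the same proportion in both libraries, although each was over 20 times higher in lung. The ratio of Cst3 to Ctsb was likewise 1.51 in spleen (interval 1.44 to 1.59) and 1.54 in lung (interval 1.5 to 1.59). These pairs were chosen after their values were seen.

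Other proportions differed between the libraries. Cst3 to Ctss was 0.842 in spleen and 0.298 in lung, and Cst3 to Ctsl was 55.5 and 6.74. Cstb to Ctsb was 0.621 in spleen and 1.32 in lung.

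Cathepsin C, the target of cystatin F, activates granzymes and other granule serine proteases. Ctsc stood at 92.8 FPKM in spleen and 219 FPKM in lung (2.36-fold), so that the ratio of Cst7 to Ctsc was 1.69 in spleen (interval 1.58 to 1.81) and 0.671 in lung (interval 0.633 to 0.712). Of the 6 serine proteases matured by cathepsin C, 4 were expressed, 2 over 2-fold higher and 1 lower. Gzmb, for granzyme B, stood at 7.51 and 63.1 FPKM (8.4-fold), Gzmk, for granzyme K, at 3.47 and 22.3 FPKM (6.42-fold), and Gzma, for granzyme A, at 13.1 and 19.5 FPKM. Elane, for neutrophil elastase, stood at 1.76 FPKM in spleen and was listed at 0 in lung, where 3 reads would give 0.329 FPKM. The inhibitor was thus below its target protease in the lung library and above it in spleen.

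The remaining cathepsins were Ctsh, for cathepsin H, at 32.2 and 216 FPKM (6.71-fold), Ctsw, the cathepsin W gene of cytotoxic lymphocytes, at 93.4 and 273 FPKM (2.92-fold), and Lgmn, for legumain, at 37.7 and 160 FPKM (4.25-fold). Neither Ctsf, at 3.33 and 3.7 FPKM, nor Ctso, at 36.6 and 33.2 FPKM, was over 2-fold apart.

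**Figure D4:**
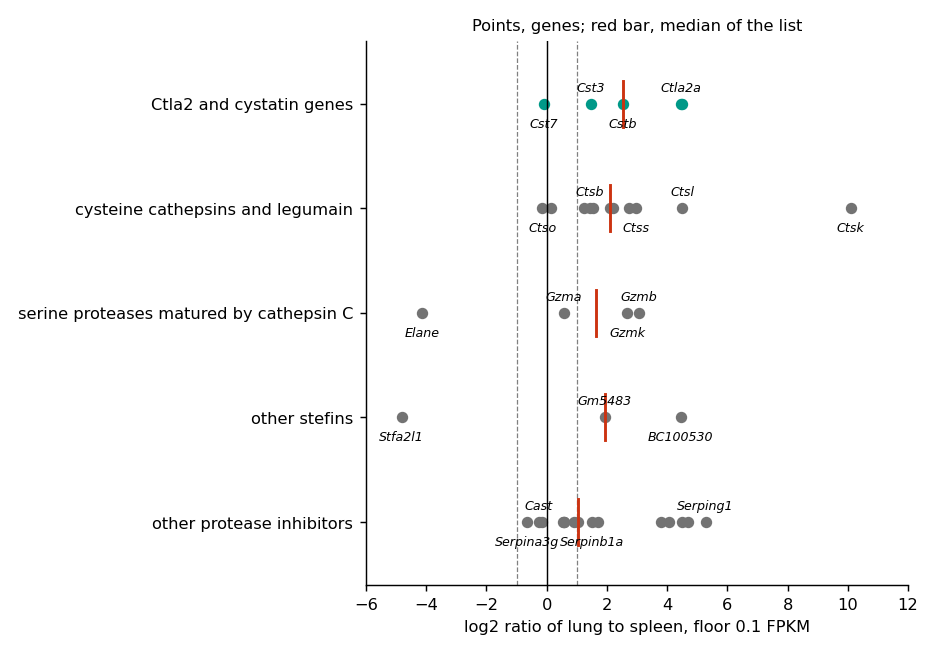
Log2 ratio of lung to spleen FPKM for the inhibitors, their relatives, their target proteases and other protease inhibitors, with 1 point for each expressed gene and a red bar at the median, FPKM under 0.1 being set to 0.1. The 11 cathepsin and legumain genes had a median of 2.09 and the 5 Ctla2 and cystatin genes of 2.52.

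Other members of the cystatin superfamily were near or at 0. Of 10 further stefin genes listed, 3 were expressed, Gm5483 at 1.41 and 5.39 FPKM, BC100530 at 0 and 2.19 FPKM, and Stfa2l1 at 2.81 and 0 FPKM, and none rested on more than 13.1 reads. Of 8 other secreted cystatins listed, 7 were at 0 in both libraries, and Cst6 stood at 0.0515 and 0.431 FPKM. Among 5 multidomain cystatins 4 were at 0 in both, and Kng1 was listed at 0 in spleen and 0.987 FPKM in lung. The stefins are near copies of each other, so the division of reads among them is uncertain. Cst3, Cst7 and Cstb thus carried nearly the whole cystatin signal of both libraries.

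Inhibitors of other protease classes were read for comparison. Of 22 genes listed, 15 were expressed, 8 were over 2-fold higher in lung and 0 lower, with a median log2 ratio of 1.03 that was -0.12 with Foxp3 set equal, and their sum was 513 FPKM in spleen and 591 FPKM in lung. The most abundant were Slpi, a secreted inhibitor of neutrophil elastase, at 102 and 147 FPKM, Cast, the calpain inhibitor calpastatin, at 112 and 93.9 FPKM, and Spint2, an inhibitor of membrane serine proteases, at 108 and 96.4 FPKM. Those over 2-fold higher with more than 20 FPKM in lung were Serpinb1a, at 13.8 and 39.5 FPKM (2.86-fold), and Serpinb9, which protects cells from granzyme B, at 12.7 and 26.1 FPKM (2.05-fold). The others were low in spleen, namely Serping1, the C1 inhibitor, at 0.239 and 9.33 FPKM, Spint1 at 0.374 and 8.39 FPKM, Serpine2 at 1.78 and 5.8 FPKM, Serpinf1 at 0.225 and 3.11 FPKM, Serpinh1 at 0.0954 and 2.61 FPKM and Serpinb8, listed at 0 in spleen, at 1.66 FPKM in lung. Serpina3g had the lowest ratio, at 102 FPKM in spleen and 65.4 FPKM in lung. At levels of 100 FPKM or more in lung, Slpi was thus the only one of these inhibitors beside Ctla2a, Ctla2b, Cst3, Cst7 and Cstb.

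The genes closest to each inhibitor were found by the distance in log2 FPKM over the 2 libraries among 10052 genes at 1 FPKM or more in both. For Ctla2a they were Mt1, a metallothionein, at 17.9 and 378 FPKM, Fabp5, a fatty acid-binding protein, at 22.5 and 415 FPKM, and Lgals3, galectin-3, at 22.6 and 453 FPKM. For Ctla2b they were S100a1, at 7.59 and 181 FPKM, Ear2, an eosinophil-associated ribonuclease, at 9.24 and 205 FPKM, and Alox5ap, of leukotriene synthesis, at 9.46 and 144 FPKM. The nearest to Cst3 were H2-Aa, an MHC class II chain, at 294 and 803 FPKM, S100a8, at 276 and 804 FPKM, and Capg, at 306 and 913 FPKM. Cstb was nearest to Fcer1g, the Fc receptor gamma chain, at 116 and 710 FPKM, C1qb, a complement component, at 129 and 560 FPKM, and Cd9, at 96.3 and 634 FPKM. Cst7 was nearest to Bzw1, at 157 and 148 FPKM, Eif4a3, at 162 and 146 FPKM, and Txn2, at 150 and 151 FPKM. With 2 libraries this likeness describes a pair of levels only.

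Transcripts of other cell types also differed between the libraries, and their part in the differences of the inhibitors was not tested. Of 12 macrophage markers listed, 9 were over 2-fold higher in lung and none was at 0, and their sum was 781 FPKM in spleen and 27547 FPKM in lung, most of it Lyz2. Chil3, of alveolar macrophages, stood at 17.4 and 1161 FPKM and C1qb at 129 and 560 FPKM. Csf1r, at 43.8 and 50.1 FPKM, Mrc1, at 7.64 and 9.41 FPKM, and Adgre1, at 14.6 and 24.3 FPKM, were not over 2-fold apart. Macrophages are known to express Cst3, Cstb and the lysosomal cathepsins. Per Lyz2, Ctla2a went from 0.0511 to 0.0171, Cst3 from 0.799 to 0.0332 and Cstb from 0.327 to 0.0283.

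Few T cell and Treg markers were over 2-fold apart. Of 7 listed, 2 were over 2-fold higher, Foxp3 and Ctla4, the latter at 221 and 601 FPKM, and 0 lower, with sums of 1549 and 1760 FPKM. Per Foxp3, Ctla2a went from 1.03 to 10.2, Ctla2b from 0.411 to 4.12, Cstb from 6.57 to 16.9 and Cst3 from 16 to 19.8, while Cst7 went from 8.35 to 3.52. The Ctla2 genes, Cstb and, by less, Cst3 were thus also higher per Foxp3 transcript in the lung library.

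Ctla2a is also known from endothelial and mast cells. Of 10 endothelial markers, 6 were expressed and 5 were over 2-fold higher in lung, 3 of them over 20-fold, with a median log2 ratio of 3.44. Their sums were 57.2 and 66.5 FPKM, of which Pecam1 made 54.8 FPKM in spleen and 31.7 FPKM in lung. Plvap stood at 0.534 and 13.2 FPKM (24.7-fold), Egfl7 at 0.101 and 8.04 FPKM, Cldn5 at 0.16 and 6.54 FPKM, Esam at 1.17 and 4.49 FPKM and Vwf at 0.425 and 2.03 FPKM, the splenic values of Egfl7 and Cldn5 resting on 1.2 and 2 reads. The 4 markers below 1 FPKM in both were Cdh5, at 0 and 0.382 FPKM, Tek, at 0 and 0.235 FPKM, Kdr, at 0.0368 and 0 FPKM, and Emcn, at 0 in both. Endothelial transcripts other than Pecam1 were thus mostly higher in the lung library, at up to 13.2 FPKM. Of 8 mast cell and basophil markers, 2 were expressed, Kit at 0.973 and 1.3 FPKM and Fcer1a at 0.708 and 1.25 FPKM, and none of these was over 2-fold apart. Cpa3 stood at 0.62 and 0.0682 FPKM, Mcpt4 and Mcpt8 were at 0 in both, and the list summed to 3.57 and 2.95 FPKM. The part of endothelial and mast cells in the level of Ctla2a was not tested.

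The remaining marker lists moved in both directions. Dendritic cell markers, 3 of 7 expressed over 2-fold higher and 1 lower, summed to 324 and 416 FPKM, of which Ccr7, which T cells also express, made 311 and 361 FPKM. The highest ratio was that of Itgax, which macrophages also express, at 1.36 and 24.1 FPKM (17.7-fold), and the lowest that of Flt3, at 1.43 and 0.172 FPKM, while Cd209a stood at 3.86 and 15.3 FPKM and Zbtb46 at 1.7 and 11.5 FPKM. Neutrophil markers summed to 458 and 1200 FPKM, with S100a8 at 276 and 804 FPKM, Csf3r at 4.06 and 26.4 FPKM and the granule genes Camp and Ltf, at 21.7 and 11.6 FPKM in spleen, at 0 in lung. Markers of NK and cytotoxic cells, which are known to express Cst7 and Ctsw, summed to 43.4 and 104 FPKM. Cd8b1 stood at 19.9 and 74.8 FPKM and Ncr1 at 2.69 and 0 FPKM. Of the 8 expressed, 2 were over 2-fold higher and 3 lower, with a median log2 ratio of -0.27. B cell markers summed to 247 and 127 FPKM, with Cd79a at 80.4 and 30.4 FPKM. The part of these cells in the levels of the 5 inhibitors was not tested.

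**Figure D5:**
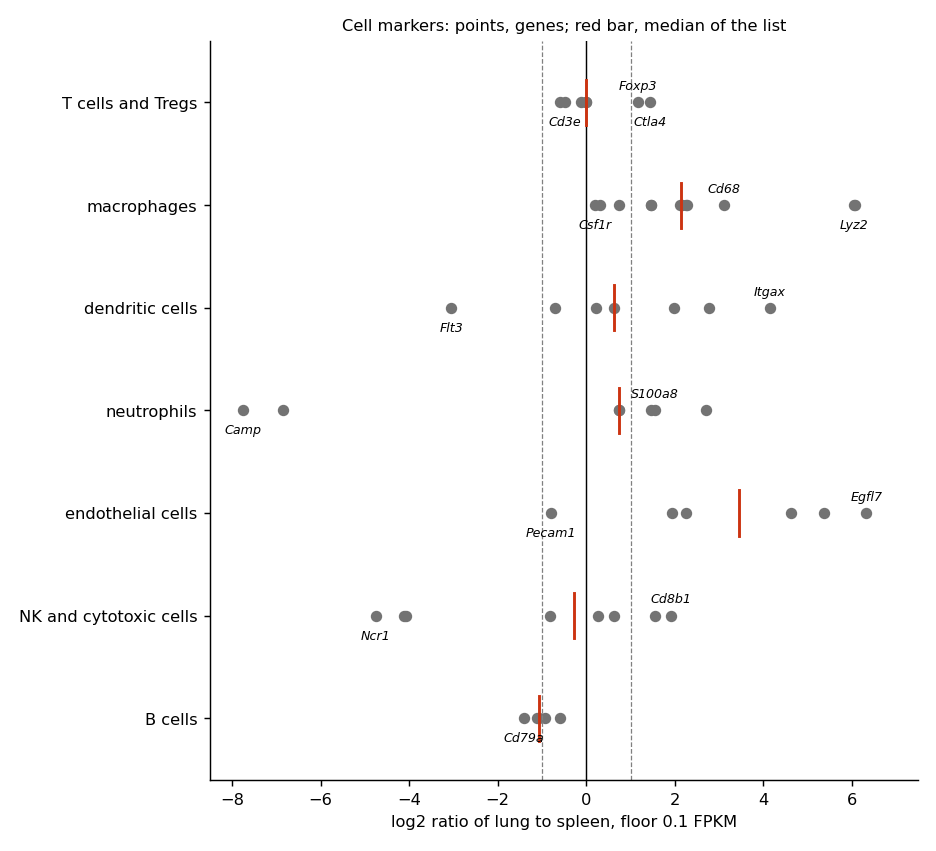
Log2 ratio of lung to spleen FPKM for markers of T cells and of other cell types, with 1 point for each expressed gene and a red bar at the median of the list, FPKM under 0.1 being set to 0.1. The median was -0.01 for T cell and Treg markers, 2.14 for macrophage markers and -1.07 for B cell markers.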

How the data were processed

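Total RNA of GFP+CD4+ cells was made into full-length cDNA with SMART-Seq HT and sequenced as 75-base single-end reads. Per the submitters' processing notes, the authors used TopHat2 2.1.1, Bowtie2 2.2.8 and SAMtools 0.1.18 with mm10, and Cuffdiff 2.2.1. The deposited values are FPKM for each symbol, 1 table per library. The annotation and the scaling between libraries are not given in the sources used here. Tissues were taken from the sample labels.

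Ratios of lung to spleen were computed after setting FPKM under 0.1 to 0.1. Calls were ratios over 2-fold, and over 20-fold as in the study, and a gene was called expressed at 1 FPKM or more in either library. No p-value was computed with 1 library per tissue. Reads were estimated from transcript lengths of GENCODE M21 (the median where a gene had several, as for Ctla2b), with an assumed fragment length of 200 ± 80 bases (mean ± SD), the value of 1 read being the modal FPKM times effective length over transcripts from 1500 nt upwards. Of genes with 1 to 10 reads, 73% in spleen and 75.1% in lung fell within 0.1 of a whole read, and the estimated reads summed to 9647122 and 12630935. Intervals are 95% intervals from these reads and cover counting error only, since PCR copies are counted separately. The value that 3 reads would give is stated for Ctsk in spleen and Elane in lung, and not for the other genes listed at 0.

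The members and the gene lists were chosen with earlier results of these data known. From each list, up to 3 genes with the highest FPKM and the genes with the highest and lowest ratio were to be named, and in the cathepsin, other inhibitor and cathepsin C lists also genes over 2-fold apart. Other genes were named after their values were seen. For each member, the 3 nearest genes in log2 FPKM were named. Coding sequences were read from GENCODE M21 transcripts and aligned with Biopython 1.88, and promoters came from RefSeq (GRCm38.p6). The steps were tested on simulated data. Alternatives were other floors and pseudocounts, rescaling to equal upper quartiles, to TPM and to a median ratio of 1, filters on FPKM and on 3 estimated reads, other fold thresholds, and, chosen after seeing the data, rescaling to equal Foxp3 or Cd3e. Computations ran in Python 3.11.15 (pandas 2.3.3, numpy 2.4.6, matplotlib 3.10.9, scipy 1.17.1).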

Additional observations from a re-analysis of the deposited data

How the results depend on the processing

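The log2 ratio was above 0 in every setting tried for Ctla2a (3.31 to 4.94), Ctla2b (3.33 to 4.96), Cst3 (0.30 to 1.94) and Cstb (1.36 to 3.0), while that of Cst7 ranged from -1.25 to 0.39. The count of inhibitors over 2-fold higher in lung stayed at 4 of 5 under the planned floors, pseudocounts and scalings and was 3 with Foxp3 set equal. After rescaling to TPM, Cst3 was only just past the threshold, at 2.04-fold. With thresholds of 1.5-fold and 4-fold the count was 4 and 3. The count over 20-fold, 2 as reported, was 1 with a pseudocount of 1 FPKM, 0 after rescaling to TPM, 0 with equal upper quartiles and 0 with Foxp3 set equal, and 0 inhibitors exceeded 50-fold. The counting intervals of both Ctla2 genes include 20-fold.

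Over all genes, 2678 over 2-fold higher became 1763 with a floor of 1 FPKM, 1771 with a pseudocount of 1 FPKM, 1351 with Foxp3 set equal and 4285 with Cd3e set equal. The 395 over 20-fold became 867 with a floor of 0.01 FPKM, 102 with a floor of 1 FPKM, 78 with a pseudocount of 1 FPKM and 162 with Foxp3 set equal. Of all genes over 2-fold apart, 48.4% were higher in lung, and 31.8% after rescaling to TPM, 14.6% with Foxp3 and 67.1% with Cd3e set equal. The Foxp3 and Cd3e scalings were chosen after seeing the data. No paired analysis was possible because each tissue had 1 library and no test was made, and for the same reason no library could be left out. Depth limits mainly the stefins and other genes of few reads. Of the 5 inhibitors, Ctla2b in spleen had the fewest reads, about 61. Counting error also leaves the place of both Ctla2 genes beside 20-fold undecided.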

Other observations

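The chromosome 13 neighbourhood of Ctla2a and Ctla2b holds genes of the placenta. Tpbpb, which lies between them, and Tpbpa, Ctsj, Ctsq, BC051665 and Ctsll3 were listed at 0 in both libraries. Dapk1, a death-associated kinase gene, stood at 1.29 and 3.54 FPKM in spleen and lung, and 4930486L24Rik at 2.15 and 2.04 FPKM. Of 10 placental cathepsin and Tpbp genes, 9 were at 0 in both libraries, and Cts8 stood at 0.211 and 0.0372 FPKM, the lung value resting on 1.01 reads. Within 150 kb, the high level in the lung library was thus seen in the Ctla2 pair alone among the listed genes.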
